A study of Mus musculus with 12 samples.

Results

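Integrins and laminins were followed as a family across primary mouse embryonic fibroblasts that were being converted to induced motor neurons. The members were the rows whose gene symbol has the form of an integrin alpha chain (Itga), an integrin beta chain (Itgb) or a laminin chain (Lama, Lamb or Lamc). The pattern matched 37 of 23077 rows, and 33 were kept because their value reached at least 10 in at least 3 of 11 libraries. The kept genes were 16 of 18 integrin alpha chains, 7 of 8 integrin beta chains, 5 of 5 laminin alpha chains, 3 of 3 laminin beta chains and 2 of 3 laminin gamma chains. Those left out were Itgad, Itgae, Itgb6 and Lamc3, whose third-highest values were 0, 1.19, 2.54 and 6.69. Just inside the limit were Itgb4, Itga10 and Itgb8, with third-highest values of 27.3, 28.4 and 31.3. Values are normalized read counts, that is, gene counts divided by 1 constant for each library.

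The cells carried the Hb9::GFP reporter genotype in every group, and all groups received a retrovirus for Ngn2, Isl1 and Lhx3 (NIL). NIL cells received only this virus (n = 3). SDD cells also received SNAP-p53DD, a SNAP-tagged dominant negative fragment of p53 (n = 3). SDDIR cells received SDD followed by an IRES and the active mutant of HRAS (n = 2), and RISDD cells received the same active HRAS ahead of the IRES and SDD (n = 3). An IRES lets a second protein be read from 1 transcript. All cells were moved to N3 neuronal medium at 3 days post infection and collected at 4 days. RepSox, which inhibits the TGF-beta receptor, was present from 3 days in SDD, SDDIR and RISDD. These groups were sorted for SNAP-positive cells and NIL for live singlets, so the SNAP-p53DD virus, RepSox and the sort cannot be told apart in SDD against NIL. The replicates carry the letters A, B and C, with nothing further on their origin, so p-values cover the spread among these libraries, which may be technical.

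Integrins are cell surface receptors made of 1 alpha and 1 beta chain. They bind matrix or counter-receptors outside the cell and, through talin and kindlin, the actin cytoskeleton inside it. The alpha chain and its partner together set the ligand: some pairs bind collagen, some laminin, some the RGD sequence of fibronectin, vitronectin and osteopontin, and those with Itgb2 bind ligands of leukocytes. Laminins are trimers of an alpha, a beta and a gamma chain that build the basement membrane and are ligands of the laminin-binding integrins. In fibroblast cultures integrins hold the cells in focal adhesions, and neurons use laminin as a growth substrate.

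Recovered read totals ran from 14872639 to 29815073 per library. The Trp53 row, which reads the p53 fragment too, was 2873 to 3674 in NIL and 29277 to 46185 in the groups given SNAP-p53DD, while the Hras row did not separate the groups given HRAS from the others. NIL C stood apart from NIL A and NIL B, with a mitochondrial share of 0.537% against 3.62% and 4.00%, so SDD against NIL is also given without it. Fibroblast markers were present in every library but lower with HRAS: their sum (10 genes) was 764662 to 1124381 in NIL and 565711 to 700180 in SDD, 164149 to 169321 in SDDIR and 88631 to 91381 in RISDD. Col1a1, Col1a2, Col3a1 and Postn made up most of that sum in every library. Pdgfra, also in it, was 3682, 3048 and 3541 in NIL and 7316, 6047 and 7325 in SDD. In SDDIR it was 2783 and 2833, and in RISDD 2210, 1967 and 2816. In these bulk samples, fewer cells of a type and less RNA per cell cannot be told apart.

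In each of the 4 comparisons a larger share of the members was called than of all genes tested. No test of that difference was made, since the members were chosen with results known. A gene was called at a limma adjusted p under 0.05. In SDD against NIL, 12 of 33 members were called (36.4%, against 17.6% of the 14207 genes tested), 4 higher (9.32% of all genes) and 8 lower (8.26%). In SDDIR against SDD it was 13 of 33 (39.4% against 22.5%), 5 higher (8.66% of all) and 8 lower (13.9%). The higher and lower shares of all genes depend on scaling. In SDDIR against SDD 1230 genes were higher and 1969 lower, and 1718 and 1790 with quantile scaling. The balance reversed with that scaling in SDD against NIL (1324 and 1174, then 1239 and 1425). It also reversed in RISDD against SDD (2840 and 3206, then 3345 and 2941). RISDD against SDDIR moved little (659 and 718, then 650 and 722). Shares of all genes given here and below are those of the main scaling unless stated. RISDD against SDD called 22 of 33 (66.7% against 42.6%), with 11 higher (20.0% of all) and 11 lower (22.6%). RISDD against SDDIR called 12 of 33 (36.4% against 9.69%), 7 higher (4.64% of all) and 5 lower (5.05%).

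The members' changes went both ways. The median absolute log2 difference of the members was 0.58, 0.80, 1.59 and 0.84 in the same order, against 0.39, 0.39, 0.54 and 0.30 over all genes tested. Their signed medians were -0.29, 0.09, -0.09 and 0.06, against 0.05, 0.01, 0.02 and 0.01. SDDIR against SDD and RISDD against SDD share the SDD libraries, and SDD enters 3 of the 4 comparisons. Of the 33 members, 25 were called at least once, and Itgb3, Itgb5, Lama4 and Lamb1 were called in all 4 comparisons. The count for RISDD against SDDIR was 19 without NIL C, where 29.4% of all genes were called, against 9.69% with all libraries. It fell without SDDIR A or without SDDIR B, fits that leave 1 SDDIR library. The count for SDD against NIL was 7 without SDD A and 6 without SDD C, where 10.1% and 8.66% of all genes were called. That for SDDIR against SDD fell without SDDIR B.

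**Figure D1:**
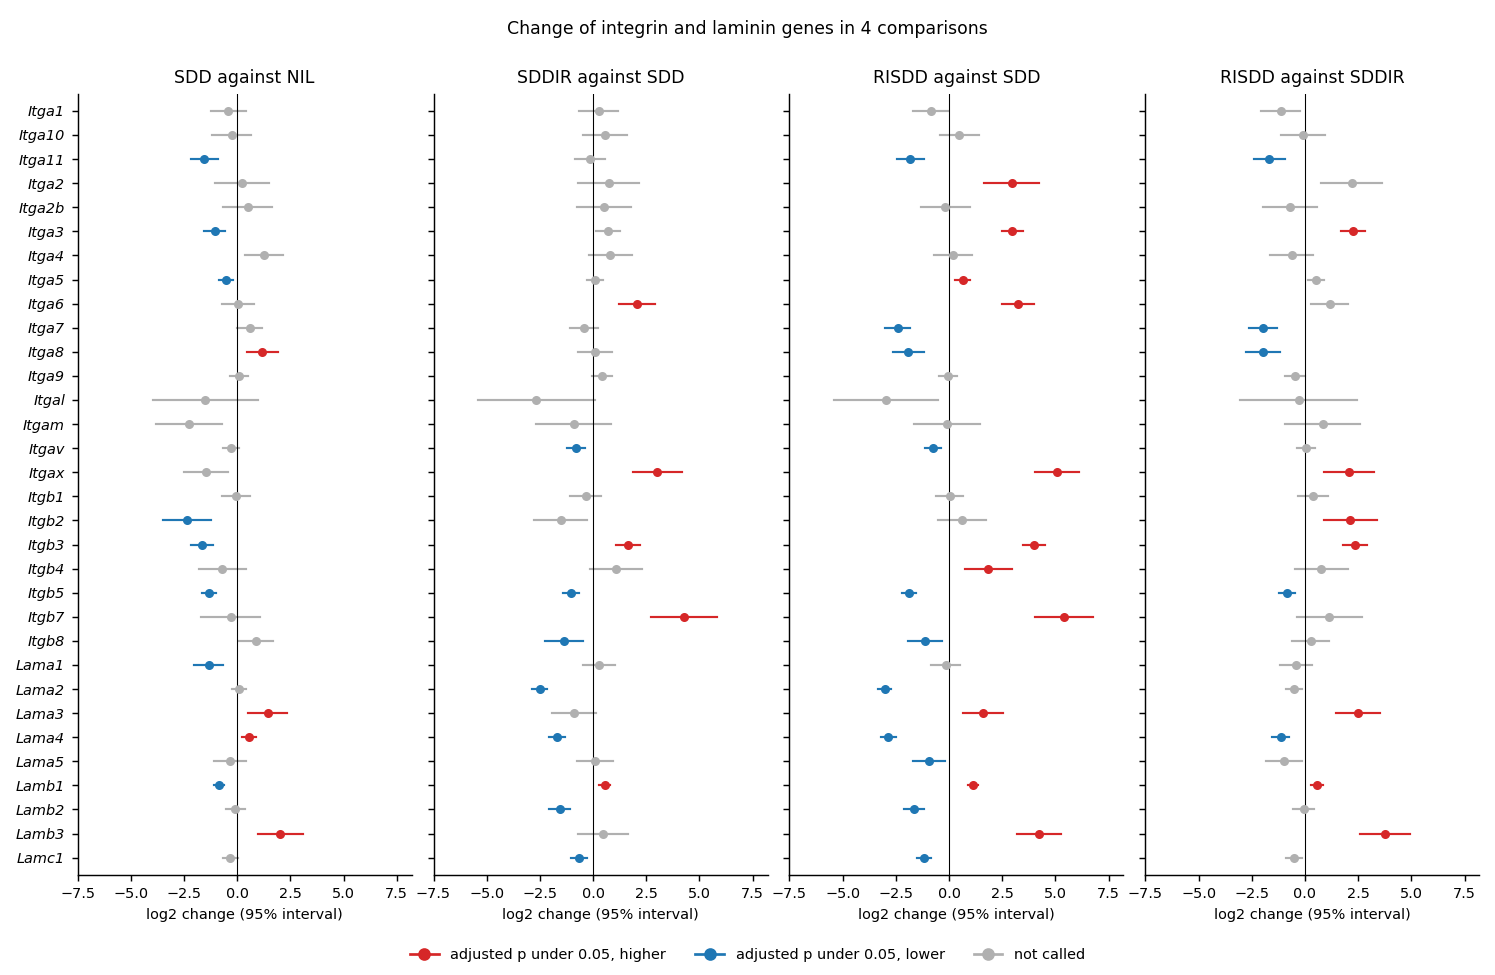
Log2 difference of 32 kept integrin and laminin genes in the 4 comparisons, on log2(value + 1), with 95% intervals from limma. Red marks a gene called higher, blue a gene called lower and grey a gene not called. RISDD against SDD holds 11 red and 11 blue genes, and Itgb7, Itgax and Lamb3 reach farthest to the right there.

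Promoters are shown for Itgax, Itga3 and Lamb3, which rose in RISDD against SDD, and for Lama2, which fell. RefSeq promoter windows of GRCm38.p6, each 250 bases before to 50 after a start site, matched 23 of the 37 members (26 windows). They were searched on both strands for TGANTCA, a site of AP-1, for CCGGAAG, a site of ETS factors, and for CATTCC, a site of TEAD factors, AP-1 and ETS factors being known targets of the RAS pathway. AP-1 letters stood in 3 of 26 windows, against 7.81% of 32817 windows of all genes: those of Itgax, Itga9 and a second start of Itga3. ETS letters stood in 1 of 26 (Itga3, 8.86% of all windows) and TEAD letters in 3 of 26 (Itga10, Itgb1 and a second start of Lamb3, 14.7% of all windows). A match is a description of letters, not of binding, and the files use GRCm39. The 250 bases before the start follow, 5′ to 3′ on the strand of the gene, with any match in capitals. Itgax (chr7:128129300-128129549, plus strand) and Lamb3 (chr1:193301744-193301993, plus strand) rose in RISDD. Itga3 (chr11:95076715-95076964, minus strand) rose in RISDD but was not called in SDDIR, and Lama2 (chr10:27616943-27617192, minus strand) fell in both. Capitals mark the AP-1 letters in Itgax and the ETS letters in Itga3. The Lamb3 and Lama2 stretches hold none of the 3 motifs. Nor do the windows of Itgb7 and Itga2, which also rose in RISDD, while Itga9, with AP-1 letters, was called in no comparison. A link between these letters and the changes was not tested.
Itgax: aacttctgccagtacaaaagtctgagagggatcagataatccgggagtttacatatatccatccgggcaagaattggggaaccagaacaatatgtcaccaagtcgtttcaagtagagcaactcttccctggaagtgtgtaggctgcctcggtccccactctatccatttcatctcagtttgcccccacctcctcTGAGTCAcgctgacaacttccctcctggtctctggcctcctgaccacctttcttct
Itga3: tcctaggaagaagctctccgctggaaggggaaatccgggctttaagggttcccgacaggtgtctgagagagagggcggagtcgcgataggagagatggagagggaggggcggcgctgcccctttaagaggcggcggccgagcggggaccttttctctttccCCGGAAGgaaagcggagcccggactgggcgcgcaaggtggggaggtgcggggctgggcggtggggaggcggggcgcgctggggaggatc
Lamb3: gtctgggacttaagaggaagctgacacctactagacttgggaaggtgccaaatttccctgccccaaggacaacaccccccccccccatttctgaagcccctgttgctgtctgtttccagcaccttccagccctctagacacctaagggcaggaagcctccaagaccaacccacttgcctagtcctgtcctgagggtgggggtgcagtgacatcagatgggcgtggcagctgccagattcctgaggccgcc
Lama2: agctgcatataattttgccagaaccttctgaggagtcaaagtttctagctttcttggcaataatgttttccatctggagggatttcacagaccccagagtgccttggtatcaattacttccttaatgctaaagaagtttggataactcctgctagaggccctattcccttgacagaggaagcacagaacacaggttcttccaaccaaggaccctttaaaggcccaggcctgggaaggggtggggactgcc

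Among the integrins that bind RGD ligands, Itgb3 rose and Itgb5 fell with HRAS. Itgb3 encodes the beta chain that pairs with Itgav in adherent cells and with Itga2b in platelets. Listing replicates A, B and C in order, and A and B for SDDIR, Itgb3 was at 414, 680.0 and 390.2 in NIL, 118, 195 and 151 in SDD, 473 and 462 in SDDIR, and 2402, 2285 and 2574 in RISDD. The SDD libraries were the lowest and the RISDD libraries the highest, with no overlap in any of the 4 comparisons. Itgb3 was 3.15-fold lower in SDD than in NIL (log2 difference -1.65 ± 0.23 SE, limma adjusted p 0.00156), 3.07-fold higher in SDDIR than in SDD (1.62 ± 0.26, adjusted p 0.00143) and 15.9-fold higher in RISDD than in SDD (3.99 ± 0.23, adjusted p 5.99e-07). RISDD exceeded SDDIR 5.16-fold (2.37 ± 0.26, adjusted p 0.000646). Each of these 4 calls held under every alternative run.

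Itgb5, the beta chain of the vitronectin receptor with Itgav, was at 3844, 3916 and 5548 in NIL, 1821, 1739.6 and 1619 in SDD, 827 and 873 in SDDIR, and 437, 453 and 511 in RISDD. The 4 groups followed one another downward without overlap. The fall was 2.53-fold in SDD against NIL (log2 difference -1.34 ± 0.15, adjusted p 0.000596), 2.03-fold in SDDIR against SDD (-1.02 ± 0.17, adjusted p 0.00187) and 3.70-fold in RISDD against SDD (-1.89 ± 0.15, adjusted p 5.44e-06). RISDD was 1.82-fold below SDDIR (-0.87 ± 0.17, adjusted p 0.011), a call lost without SDDIR A or without SDDIR B (adjusted p over all alternatives 1.38e-05 to 0.0943). Itgav, the alpha partner of both, averaged 6501 ± 1649.5 in NIL (SD, n = 3) and 5218 ± 317 in SDD (n = 3), 2949 ± 195 in SDDIR (n = 2) and 3084 ± 249 in RISDD (n = 3). Itgav fell 1.77-fold in SDDIR (adjusted p 0.0108, lost without SDDIR A or SDDIR B, range 1.06e-05 to 0.0958) and 1.69-fold in RISDD (adjusted p 0.00451), each against SDD. The 2 HRAS groups overlapped for Itgav, and their difference had a 95% interval of -0.36 to 0.49.

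Itgb8, which with Itgav binds latent TGF-beta, was low throughout, at 20.2 ± 5.74 in NIL and 37.7 ± 6.59 in SDD, 13.7 ± 0.959 in SDDIR and 17.3 ± 5.70 in RISDD (SD, n as above). It fell 2.60-fold in SDDIR (adjusted p 0.031, range 0.00702 to 0.158) and 2.17-fold in RISDD (adjusted p 0.0277, range 0.00571 to 0.112) against SDD. The first call was lost without any 1 of the SDD or SDDIR libraries, and the second without SDD A, SDD B, RISDD A or RISDD C. Itgb6, the epithelial partner of Itgav, stayed at 5.06 or below in all 11 libraries. Itga2b, the platelet alpha chain, ran from 10.6 to 46.2 and was called in no comparison.

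Itga8, the alpha chain of the nephronectin receptor of mesenchyme, was at 594, 853 and 299 in NIL, 1222, 1506 and 971 in SDD, 1124 and 1475 in SDDIR, and 351, 317 and 303 in RISDD. SDD and SDDIR overlapped, while all RISDD libraries lay below both. RISDD was 3.75-fold below SDD (log2 difference -1.91 ± 0.32, adjusted p 0.0008) and 3.97-fold below SDDIR (-1.99 ± 0.36, adjusted p 0.00786), the latter lost without SDDIR A or SDDIR B (range 2.45e-06 to 0.0836). Itga8 was 2.27-fold higher in SDD than in NIL (1.19 ± 0.32, adjusted p 0.0307), a call lost without any 1 of the SDD or RISDD libraries (range 0.0071 to 0.134). Itga5, the alpha chain of the main fibronectin receptor, averaged 5248 ± 958 in NIL and 3597 ± 434 in SDD, 3829 ± 164 in SDDIR and 5570.2 ± 433 in RISDD. It rose 1.55-fold in RISDD against SDD (adjusted p 0.00626). The 1.45-fold fall in SDD against NIL (adjusted p 0.0353) did not hold in 12 of 23 alternatives (range 0.00577 to 0.154), among them those without NIL B, SDD A, SDD C or any 1 of the RISDD or SDDIR libraries.

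The laminin-binding alpha chains parted: Itga3 and Itga6 rose with HRAS before the IRES and Itga7 fell. Itga6, which pairs with Itgb1 or, in hemidesmosomes, with Itgb4, was at 1855, 3110.2 and 1880.1 in NIL, 1179, 3438 and 2834 in SDD, 9648 and 9395 in SDDIR, and 19915, 21099 and 22886 in RISDD. NIL and SDD overlapped, SDDIR lay above both, and RISDD lay above SDDIR. The rise over SDD was 4.22-fold in SDDIR (log2 difference 2.08 ± 0.39, adjusted p 0.00339) and 9.42-fold in RISDD (3.24 ± 0.34, adjusted p 3.52e-05). Although RISDD and SDDIR did not overlap, their 2.23-fold difference was not called (1.16 ± 0.39, 95% interval 0.30 to 2.01, adjusted p 0.0892). That difference was called in 4 of 23 alternatives, DESeq2 among them.

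Itga3, a laminin receptor chain of epithelia, was at 184, 282 and 355 in NIL, 109, 136 and 134 in SDD, 187 and 224 in SDDIR, and 1082, 994 and 907 in RISDD. All RISDD libraries lay above every other library. RISDD was 7.82-fold above SDD (log2 difference 2.97 ± 0.23, adjusted p 3.86e-06) and 4.83-fold above SDDIR (2.27 ± 0.25, adjusted p 0.000707). SDD was 2.09-fold below NIL (-1.06 ± 0.23, adjusted p 0.011). SDDIR against SDD missed the threshold for Itga3 (0.70 ± 0.25, 95% interval 0.14 to 1.26, adjusted p 0.0741), but was called in 5 of 23 alternatives, DESeq2 among them.

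Itga7, the laminin receptor chain of muscle and Schwann cells, was at 919, 964 and 1735 in NIL, 1714, 1741 and 1719.5 in SDD, 1187 and 1393 in SDDIR, and 262, 461 and 281 in RISDD. The RISDD libraries were the lowest, and NIL C lay with SDD. The fall was 5.31-fold against SDD (log2 difference -2.41 ± 0.26, adjusted p 4.21e-05) and 3.96-fold against SDDIR (-1.99 ± 0.29, adjusted p 0.00302). Of the skeletal muscle markers, Myod1 stayed at 5.80 or below in every library. Chrna1 was 1062, 2356 and 1481 in SDD and 6068, 5849 and 5826 in RISDD. Schwann and neural crest markers went both ways. Mbp was 15.8, 22.2 and 14.7 in SDD and 242, 245 and 217 in RISDD. Ngfr was 40.6, 61.9 and 29.5 in SDD and 9.89, 18.2 and 7.90 in RISDD. The part of such cells in the Itga7 values was not tested. Itga7 was not called in SDD against NIL (0.58 ± 0.26, adjusted p 0.152), but without NIL C it was called higher in SDD (0.87). Itgb4, the hemidesmosome chain, ran from 13.6 to 15.6 in NIL, 3.38 to 14.5 in SDD, 12.7 to 27.3 in SDDIR and 26.1 to 37.4 in RISDD, and its 3.60-fold rise in RISDD over SDD was called (adjusted p 0.0123).

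Among the collagen-binding alpha chains, Itga2 rose and Itga11 fell in RISDD, and Itga1 and Itga10 were called in no comparison. Itga2 was at 36.6, 93.6 and 34.9 in NIL, 19.2, 98.6 and 98.9 in SDD, 97.4 and 96.0 in SDDIR, and 427, 416 and 507 in RISDD. SDD A was low, SDD B and SDD C lay beside SDDIR, and RISDD lay above all of them. Itga2 was 7.67-fold higher in RISDD than in SDD (log2 difference 2.94 ± 0.58, adjusted p 0.00205). Without SDD A the log2 difference was 2.17 and was still called (adjusted p 0.00222, all alternatives 3.03e-06 to 0.0109). RISDD against SDDIR was not called for Itga2 (2.20 ± 0.65, 95% interval 0.77 to 3.63, adjusted p 0.0595). It was called there in 8 of 23 alternatives, among them DESeq2, edgeR and only the 2 groups compared.

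Itga11, a collagen receptor chain of fibroblasts, was at 287, 173 and 361 in NIL, 100.4, 89.0 and 79.9 in SDD, 73.7 and 86.5 in SDDIR, and 22.3, 21.2 and 30.8 in RISDD. SDD and SDDIR overlapped between the higher NIL and the lower RISDD libraries. Itga11 fell 2.91-fold in SDD against NIL (log2 difference -1.54 ± 0.29, adjusted p 0.00579), 3.55-fold in RISDD against SDD (-1.83 ± 0.29, adjusted p 0.000466) and 3.18-fold in RISDD against SDDIR (-1.67 ± 0.32, adjusted p 0.0101). The last of these was lost without SDDIR A or SDDIR B (range 7.8e-05 to 0.0929). Itga1, which lies next to Itga2 on the chromosome, averaged 442 ± 215 in NIL and 299 ± 70.6 in SDD, 357 ± 61.2 in SDDIR and 162 ± 20.3 in RISDD. Its difference in RISDD against SDD was -0.87 (95% interval -1.69 to -0.05, adjusted p 0.0838), which was called in 5 of 23 alternatives. The difference of -1.14 in RISDD against SDDIR was called in 4 of 23. Itga1 was called lower in SDD than in NIL without NIL C (-0.94). Itga10, the cartilage chain, ran from 11.6 to 36.8.

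Itgb1, the shared beta chain of the collagen, laminin and fibronectin receptors, was called in no comparison. It was at 40303, 42317 and 16658 in NIL, 31351, 28847 and 27778 in SDD, 23226 and 22816 in SDDIR, and 31027, 31711 and 27102 in RISDD. NIL C was the lowest of the 11 libraries and NIL B the highest. The log2 difference in SDD against NIL was -0.06 with all libraries (adjusted p 0.902) and -0.50 without NIL C, which was called. For RISDD against SDD the 95% interval was -0.61 to 0.67. SDDIR against SDD and RISDD against SDDIR were each called in 3 of 23 alternatives.

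**Figure D2:**
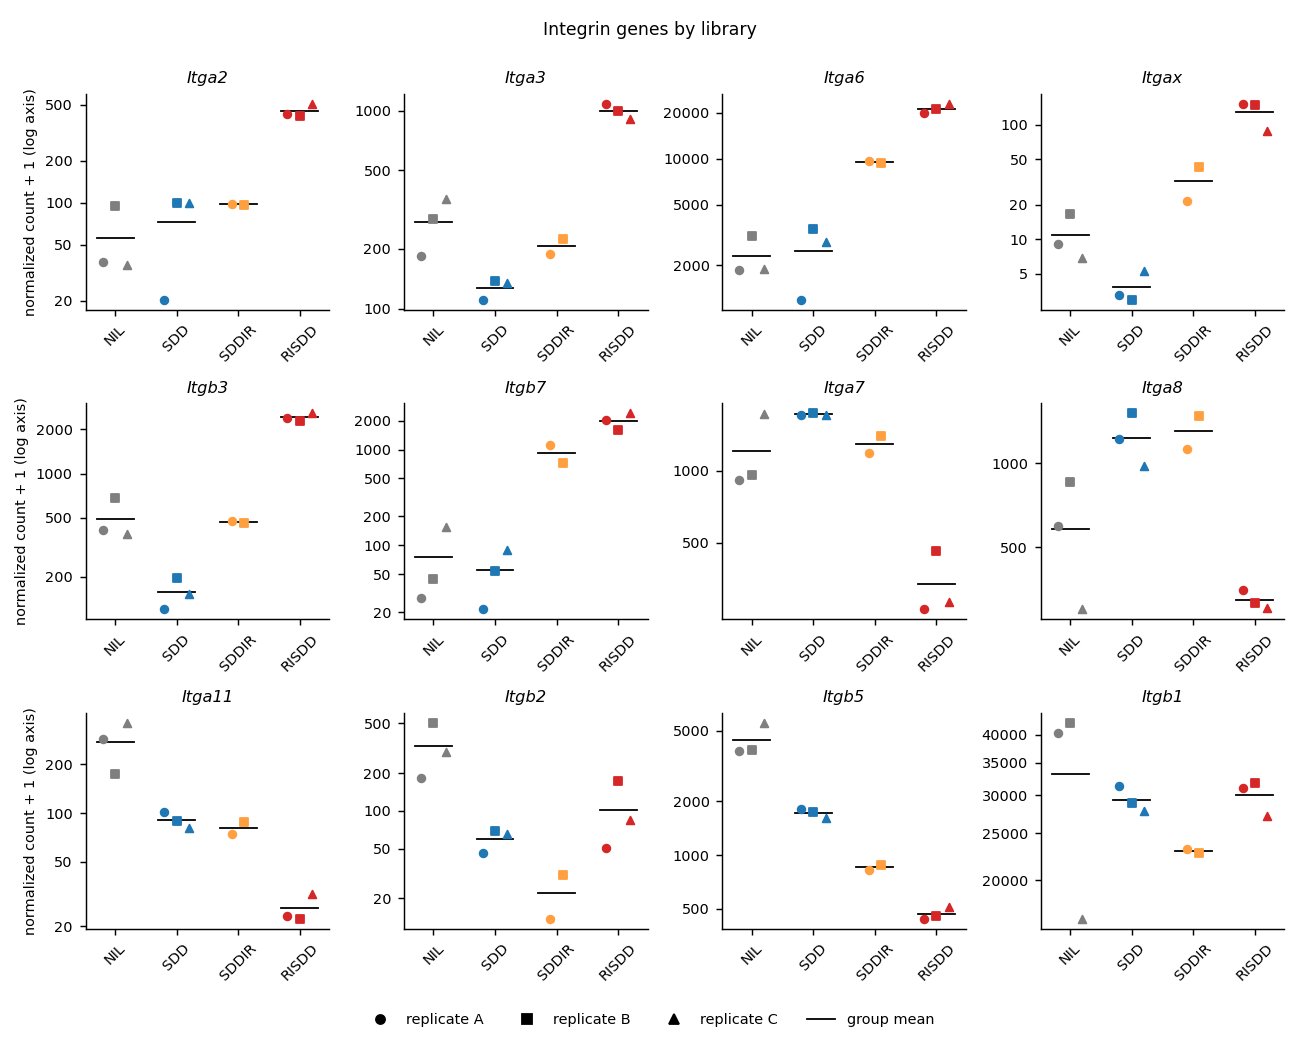
Normalized count + 1 on a log axis for 12 integrin genes in each of 11 libraries. Circles, squares and triangles are replicates A, B and C, the colours are the 4 groups, and the black line is the group mean. In Itgb3, Itga3 and Itga2 every RISDD library lies above all others, in Itgb5 the groups step down from NIL to RISDD, and in Itgb1 NIL C lies alone.

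The largest rise of the family in RISDD against SDD, on this scale, was that of Itgb7, which forms receptors of lymphocytes with Itga4 and Itgae. Itgb7 was at 26.9, 43.5 and 152 in NIL, 20.3, 52.2 and 87.9 in SDD, 1106 and 730.3 in SDDIR, and 2021, 1608 and 2400.3 in RISDD. The HRAS groups lay above NIL and SDD without overlap, and RISDD lay above SDDIR. The rise over SDD was 42.6-fold in RISDD (log2 difference 5.41 ± 0.62, adjusted p 5.77e-05) and 19.3-fold in SDDIR (4.27 ± 0.69, adjusted p 0.00166). RISDD against SDDIR was not called (1.14 ± 0.69, 95% interval -0.40 to 2.68, adjusted p 0.369).

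Of the alpha partners of Itgb7, Itga4 was not called and Itgae was not among the kept genes. Itga4 averaged 1285 ± 685 in NIL and 2699 ± 423 in SDD, 4785 ± 1444 in SDDIR and 3084 ± 636 in RISDD, with 95% intervals of -0.21 to 1.82 for SDDIR and -0.72 to 1.09 for RISDD, each against SDD. Itga4 missed the threshold in SDD against NIL (1.26 ± 0.41, adjusted p 0.0585), and was called without NIL C (0.68), without NIL A and without NIL B. Itgae stayed at 2.46 or below. Itga9, a receptor chain for tenascin and osteopontin, ran from 441 to 823 and was called in no comparison.

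The leukocyte integrins held 2 patterns. Itgb2, the shared beta chain of leukocyte integrins, was at 182, 506 and 293 in NIL, 45.1, 67.7 and 64.5 in SDD, 12.7 and 29.6 in SDDIR, and 49.5, 171 and 83.8 in RISDD. NIL B was the highest library, and the NIL libraries lay above SDD without overlap. Itgb2 was 5.09-fold lower in SDD than in NIL (log2 difference -2.35 ± 0.50, adjusted p 0.0115) and 4.41-fold higher in RISDD than in SDDIR (2.14 ± 0.56, adjusted p 0.0396). The second call was lost in 10 of 23 alternatives (range 0.00215 to 0.327), among them those without any 1 of the SDD or SDDIR libraries and without RISDD B or RISDD C.

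The alpha chains Itgam and Itgal, of macrophages and lymphocytes, were called in no comparison with all libraries and limma. Itgam was at 101, 424 and 253 in NIL and at 14.4 to 129 elsewhere, and Itgal at 35.0, 201 and 118 in NIL and at 0 to 67.7 elsewhere. In both genes NIL B was the highest library. Their differences in SDD against NIL were -2.27 (95% interval -3.83 to -0.70, adjusted p 0.0509) and -1.50 (-3.96 to 0.97, adjusted p 0.363). Itgam was called lower in SDD against NIL in 8 of 23 alternatives, among them DESeq2, edgeR and a replicate block. Itgal was called lower in RISDD against SDD in 8 of 23, again with DESeq2, edgeR and a replicate block, and with that block also in SDD against NIL and in SDDIR against SDD.

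Itgax, the alpha chain of dendritic cells and some macrophages, rose with HRAS. It was at 8.14, 15.6 and 5.82 in NIL, 2.26, 1.93 and 4.30 in SDD, 20.3 and 41.5 in SDDIR, and 151, 149 and 86.9 in RISDD. The HRAS libraries lay above all NIL and SDD libraries. Itgax rose 34.1-fold in RISDD against SDD (log2 difference 5.09 ± 0.47, adjusted p 1.31e-05) and 8.14-fold in SDDIR against SDD (3.02 ± 0.52, adjusted p 0.00233). Itgax reached a value of 10 in 6 libraries, 1 of NIL, 2 of SDDIR and 3 of RISDD. It would not have passed the filter without the HRAS libraries, so its differences against SDD follow in part from that filter. As its SDD values are 4.30 or below, the sizes depend on the pseudocount: with 10 added in place of 1 the log2 differences were 3.40 and 1.63, both called. RISDD exceeded SDDIR 4.18-fold (2.07 ± 0.52, adjusted p 0.0336), a call lost without any 1 of the RISDD or SDDIR libraries (range 0.00111 to 0.289).

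Markers of leukocytes and macrophages (15 genes) summed to 4413 to 17300 in NIL and 798 to 2087 in SDD, 411 to 1107 in SDDIR and 935 to 1819 in RISDD. In SDD against NIL 5 of 14 tested were called, all lower, where 8.26% of all genes were lower. That count was 1 without SDD A, SDD C or NIL B, 3 without NIL C, SDD B or any 1 RISDD library, 9 without SDDIR A or SDDIR B, and 10 without NIL A. In RISDD against SDD 5 of 14 were lower and 1 higher (22.6% and 20.0% of all genes), with 2 lower without SDD B, SDD C, RISDD A or RISDD C. The 1 higher, and the 2 lower with a library left out, were below those shares. Of the defining markers, Aif1 was at 0 in all 3 RISDD libraries, but was low everywhere, at 30.1 or below. Csf1r was 6.18, 19.2 and 11.9 in RISDD against 226, 1037 and 621 in NIL. Ptprc was 32.2, 47.5 and 21.3 in RISDD, which overlapped the 22.6, 63.8 and 32.6 of SDD. In NIL Ptprc was 57.0, 363 and 54.4. The part of leukocytes in the values of Itgb2, Itgam, Itgal and Itgax was not tested. Other markers of the list did not follow these: Cd68 was 139, 419 and 281 in NIL and 53.0, 124 and 92.8 in SDD, but 316 and 345 in SDDIR and 506, 576 and 779 in RISDD. Laptm5 was 214, 979 and 496 in NIL and 37.2, 110 and 82.9 in SDD, then 15.2 and 81.8 in SDDIR and 204, 466 and 155 in RISDD. Both were higher in every RISDD library than in any SDD library, as Itgax was. Itgax and Itgam are neighbours on the chromosome with no protein-coding gene between them, and Itgad, the other neighbour of Itgax, stayed at 2.90 or below.

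**Figure D3:**
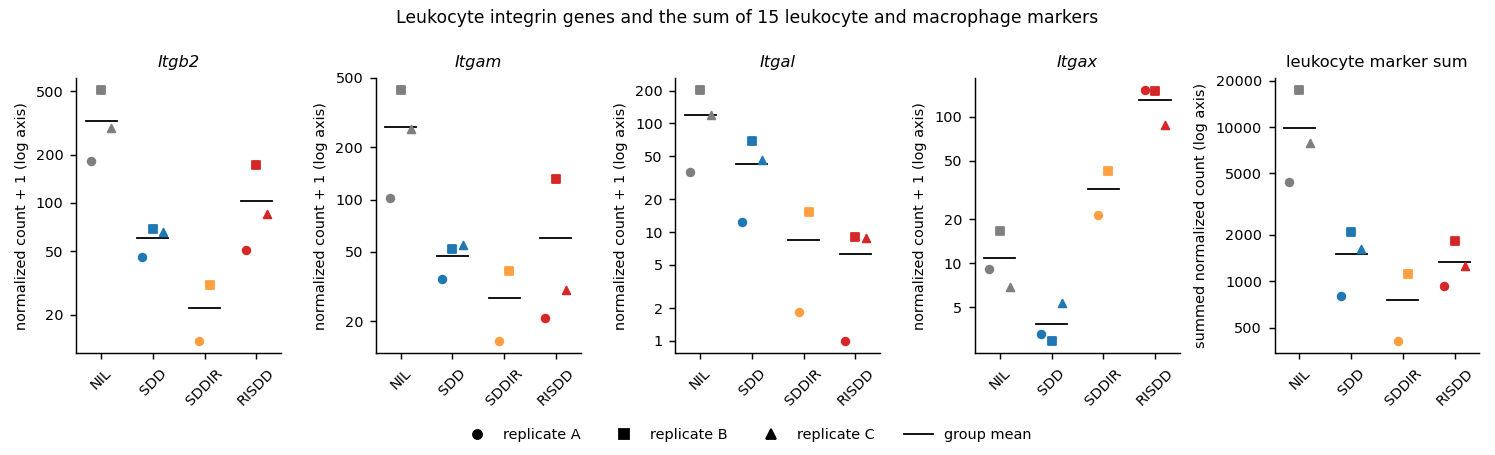
Itgb2, Itgam, Itgal and Itgax (normalized count + 1) and the sum of 15 leukocyte and macrophage markers (normalized count) in each of 11 libraries, all on log axes. Symbols are replicates, colours are groups and the black line is the group mean. Itgb2, Itgam and Itgal were highest in NIL B, whereas Itgax was highest in RISDD, at 86.9 to 151.

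Among the laminins, Lama2, Lama4, Lamb2 and Lamc1 fell in both HRAS groups against SDD, Lamb1 rose in both, and Lama3 and Lamb3 rose in RISDD. Lama2, the alpha chain of muscle and nerve laminin whose loss causes muscular dystrophy, was at 5323, 5017 and 4060.1 in NIL, 5495, 4299 and 5347 in SDD, 942 and 814 in SDDIR, and 581, 609 and 648 in RISDD. NIL and SDD overlapped, and both HRAS groups lay below them. The fall against SDD was 5.72-fold in SDDIR (log2 difference -2.52 ± 0.16, adjusted p 1.25e-05) and 8.19-fold in RISDD (-3.03 ± 0.14, adjusted p 2.1e-07). The 2 HRAS groups differed by -0.52 (95% interval -0.87 to -0.16), which was not called (adjusted p 0.0725). That difference was called in 4 of 23 alternatives, DESeq2 among them.

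Lama4, the alpha chain of vessel and mesenchymal laminin, was at 2339, 2159 and 1975 in NIL, 3112, 3087 and 3276 in SDD, 999 and 939 in SDDIR, and 385, 558 and 386 in RISDD. SDD was the highest group and RISDD the lowest, with no overlap between any pair compared. Lama4 fell 3.26-fold in SDDIR (log2 difference -1.70 ± 0.17, adjusted p 0.000105) and 7.22-fold in RISDD (-2.85 ± 0.15, adjusted p 3.68e-07) against SDD, and RISDD was 2.22-fold below SDDIR (-1.15 ± 0.17, adjusted p 0.00299). It was 1.47-fold higher in SDD than in NIL (0.55 ± 0.15, adjusted p 0.032). That last call was lost without NIL B or any 1 of the SDD or SDDIR libraries (range 0.00395 to 0.125).

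Lama1, the alpha chain of the early embryo, was at 790.2, 493 and 933 in NIL, 434, 201 and 254 in SDD, 319 and 369.9 in SDDIR, and 298, 209 and 259 in RISDD. The NIL libraries lay above SDD, and SDD overlapped both HRAS groups. Lama1 fell 2.53-fold in SDD against NIL (log2 difference -1.34 ± 0.30, adjusted p 0.0145), a call lost without SDD B or SDD C (range 0.000403 to 0.083). Lama5, the alpha chain of most adult epithelia, averaged 2790.5 ± 1184 in NIL and 2143 ± 724 in SDD, 2244 ± 859 in SDDIR and 1086 ± 137 in RISDD. Its 1.90-fold fall in RISDD against SDD stood at the threshold (adjusted p 0.0498) and was lost in 12 of 23 alternatives (range 0.0019 to 0.176), among them those without NIL B, SDD B, SDD C or any 1 of the RISDD or SDDIR libraries.

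The beta chains Lamb1 and Lamb2, which take the same place in the trimer, moved in opposite directions with HRAS. Lamb1 was at 14021, 15737 and 16787 in NIL, 8188, 8891 and 8556 in SDD, 12001 and 13065 in SDDIR, and 19598, 17596 and 18679 in RISDD. SDD was lowest and RISDD highest, with no overlap in any comparison. Lamb1 fell 1.81-fold in SDD against NIL (log2 difference -0.86 ± 0.11, adjusted p 0.000853) and rose 1.47-fold in SDDIR (0.55 ± 0.12, adjusted p 0.00748) and 2.18-fold in RISDD (1.12 ± 0.11, adjusted p 1.61e-05) against SDD. RISDD was 1.49-fold above SDDIR (0.57 ± 0.12, adjusted p 0.0149). The SDDIR call was lost without SDDIR B (range 8.18e-06 to 0.0823), and the last without RISDD A, RISDD C, SDDIR A or SDDIR B (range 1.5e-05 to 0.152).

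Lamb2, the beta chain of the neuromuscular junction and the kidney filter, was at 2758, 2698 and 4913 in NIL, 3501, 2926 and 2980.1 in SDD, 1022 and 1068 in SDDIR, and 998, 1035 and 975 in RISDD. NIL and SDD overlapped, and so did the 2 HRAS groups, at the lower level. The fall against SDD was 2.99-fold in SDDIR (log2 difference -1.58 ± 0.23, adjusted p 0.000892) and 3.12-fold in RISDD (-1.64 ± 0.21, adjusted p 0.000106). RISDD against SDDIR had a 95% interval of -0.57 to 0.45.

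Lamc1, the gamma chain of most laminins, was at 9978, 9083 and 13659.6 in NIL, 8532, 8276 and 9004 in SDD, 5563 and 5365 in SDDIR, and 3484, 3810.4 and 4251 in RISDD. The groups stepped down in that order with no overlap between those compared. Lamc1 fell 1.57-fold in SDDIR (log2 difference -0.65 ± 0.17, adjusted p 0.0182) and 2.24-fold in RISDD (-1.16 ± 0.15, adjusted p 0.000137) against SDD. The SDDIR call was lost without SDD C, SDDIR A or SDDIR B (range 6.16e-05 to 0.118).

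Lama3 and Lamb3 encode chains of the laminin that anchors epidermis. Lamb3 was at 1.63, 0 and 1.94 in NIL, 9.02, 4.83 and 7.99 in SDD, 11.0 and 9.48 in SDDIR, and 129, 172 and 152 in RISDD. RISDD stood far above every other group, and NIL was near 0. Lamb3 reached a value of 10 in 4 libraries, the 3 of RISDD and SDDIR A, so it passed the filter only through RISDD, and its differences there follow in part from that filter. Lamb3 rose 18.7-fold against SDD (log2 difference 4.22 ± 0.47, adjusted p 4.93e-05) and 13.4-fold against SDDIR (3.75 ± 0.53, adjusted p 0.00241). These sizes too depend on the pseudocount, and with 10 added they were 3.22 and 2.98, both called. SDD against NIL was called (2.03 ± 0.47, adjusted p 0.0162), but with 10 added the difference was 0.62 and the adjusted p 0.052. That call was also lost with quantile scaling and without SDD A or SDD C (range 0.00531 to 0.167).

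Lama3 averaged 8.25 ± 4.52 in NIL and 22.2 ± 3.01 in SDD, 11.4 ± 0.598 in SDDIR and 71.9 ± 25.9 in RISDD. It rose 3.02-fold in RISDD against SDD (adjusted p 0.0104, lost without RISDD C, range 0.000455 to 0.0539). RISDD was 5.61-fold above SDDIR (adjusted p 0.00914, lost without SDDIR A or SDDIR B, range 3.23e-05 to 0.0882). Its 2.69-fold rise in SDD against NIL (adjusted p 0.0394, range 0.0167 to 0.165) was lost in 16 of 22 alternatives, among them those without NIL A, NIL C, RISDD A, RISDD C or any 1 of the SDD or SDDIR libraries.

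**Figure D4:**
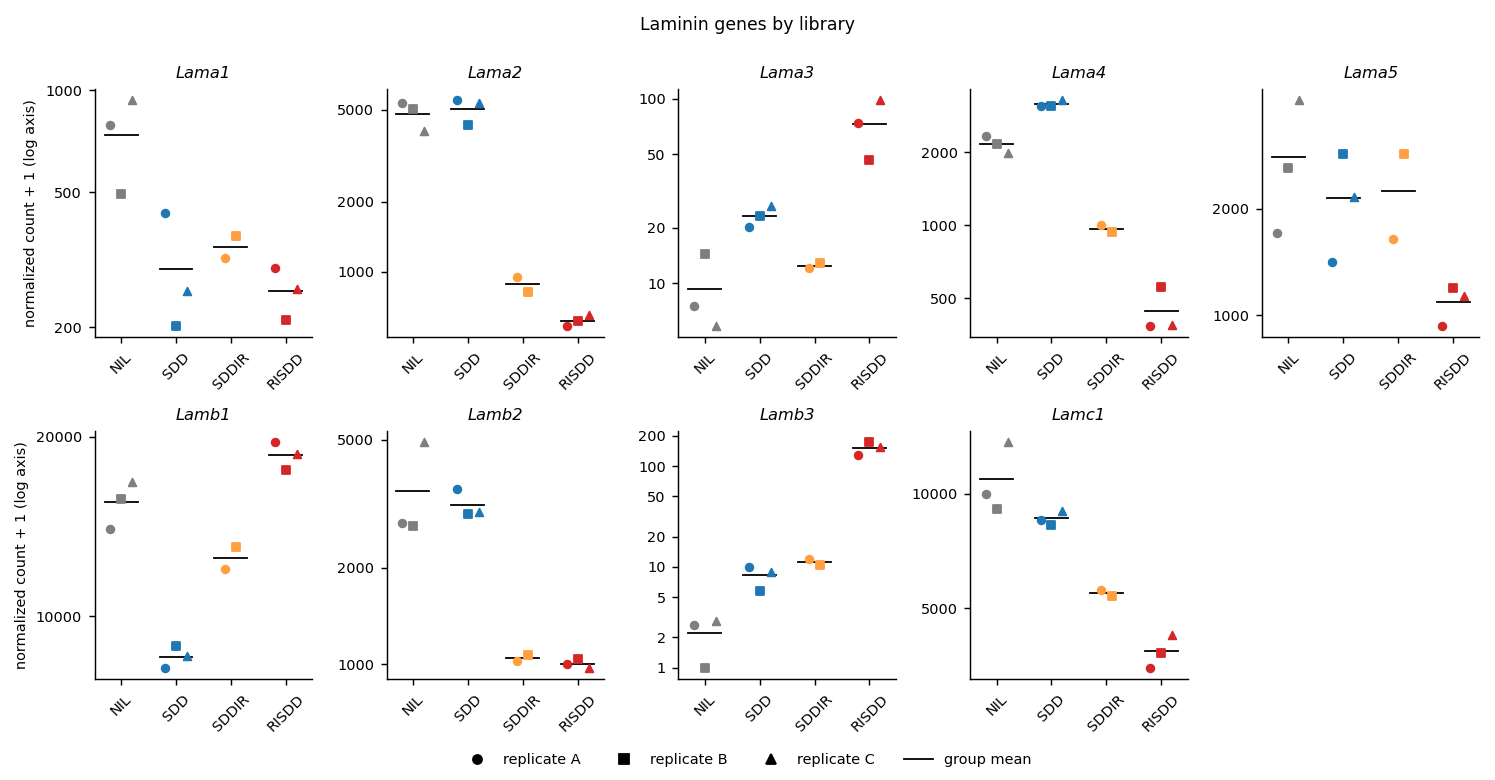
Normalized count + 1 on a log axis for 9 laminin genes in each of 11 libraries, drawn as for the integrins. Lama2, Lama4, Lamb2 and Lamc1 are lower in both HRAS groups than in SDD, while Lamb1 is lowest in SDD and Lamb3 is at 129 to 172 in RISDD against 11.0 or below elsewhere.

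Epithelial markers moved beside the rises of Itga3, Itga6, Itgb4, Lama3 and Lamb3 in RISDD. The 9 markers in the table summed to 915 to 1021 in NIL and 63.9 to 72.2 in SDD, 2432 to 3772 in SDDIR and 8744 to 12803 in RISDD. All 7 tested were called higher in RISDD than in SDD, also with each library left out. Over all genes 20.0% were higher there. In SDDIR against SDD 2 of 7 were called higher (8.66% of all genes). Of the genes named above, only Itga6 was called there, and Lama3 was lower in SDDIR than in SDD. The markers and these genes also parted in SDD against NIL. There 4 of 7 markers were called lower (8.26% of all genes). Itga3 was called lower, Lama3 and Lamb3 were called higher, and Itga6 and Itgb4 were not called. Krt8 and Krt18 made up most of the sum in the HRAS groups, and Dsp most of it in NIL. Dsp was 840, 882 and 864 in NIL and 110, 206 and 175 in RISDD. Of the defining markers, Krt14 was at 0 in all SDD, SDDIR and RISDD libraries, and Cdh1 was 71.7, 314 and 198 in RISDD and 4.74 or below elsewhere. Fibroblast markers moved beside the falls of Itgb5, Lama2 and Lama4 in both HRAS groups and of Itga11 in RISDD. Against SDD, 9 of 10 were called lower in SDDIR and 10 of 10 in RISDD, where 13.9% and 22.6% of all genes were lower. In SDD against NIL 1 fibroblast marker was called higher and 1 lower, with a list median of -0.23. Itgb5 and Itga11 were called lower there, Lama4 was called higher and Lama2 was not called. The part of either marker list in the integrin and laminin values was not tested.

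**Figure D5:**
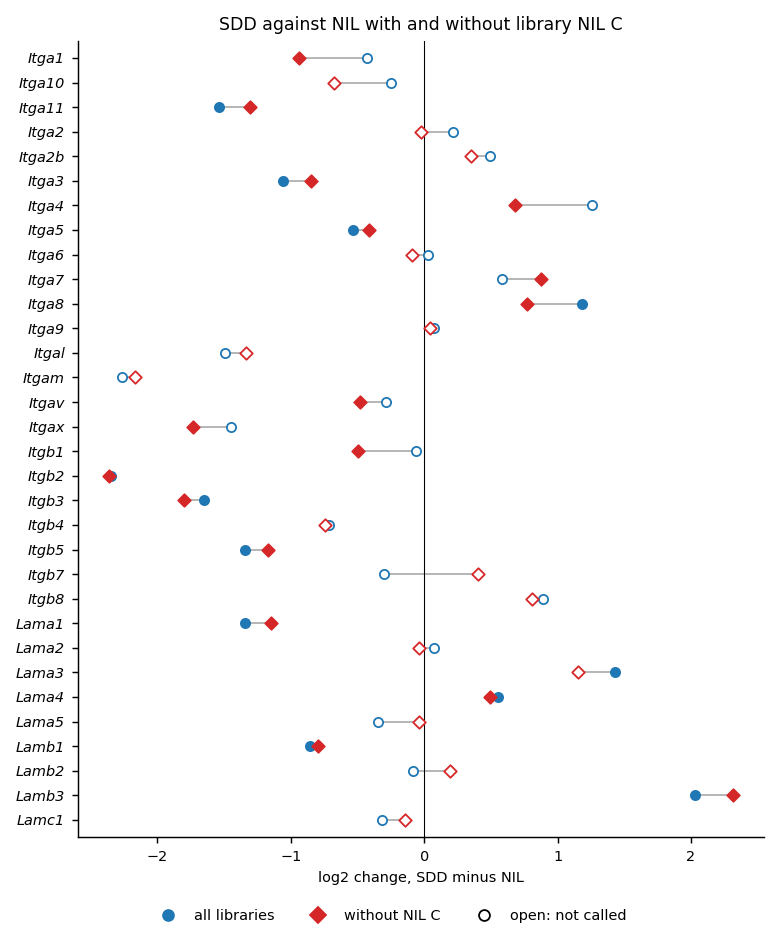
Log2 difference in SDD against NIL for 32 integrin and laminin genes with all libraries (blue circles) and without NIL C (red diamonds). Open symbols are not called, and Itgb1 moves from -0.06 to -0.50. The number called among all 33 kept genes is 12 with all libraries and 17 without NIL C. Over all genes tested, 17.6% and 29.1% were called.

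Without NIL C, SDD against NIL called 17 members, while calls over all genes also rose, from 2498 (17.6%) to 4128 (29.1%). Itga1, Itga4, Itga7, Itgav, Itgax and Itgb1 were added and Lama3 (1.15) was lost. Itgav was then lower in SDD (-0.48), as was Itgax (-1.74).

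Genes that act with integrins and laminins were counted from 3 lists. Of 32 tested adaptors and focal adhesion genes, 11 (34.4%) were called in SDD against NIL, all lower, where 8.26% of all tested genes were lower, with a list median of -0.43 against 0.05 over all genes. Ptk2b, the focal adhesion kinase relative, fell 2.51-fold (adjusted p 0.0161, lost without SDD A or SDD C), Actn1, an actin crosslinker, 2.08-fold (adjusted p 0.0172, lost without SDD A) and Fermt3, the leukocyte kindlin, 4.77-fold (adjusted p 0.023, lost without SDD A, SDD C or NIL B). The count was 5 without SDD A or without SDD C, where 701 and 584 of 14207 genes were lower. In SDDIR against SDD 6 were higher (18.8%, against 8.66% of all genes) and 4 lower (12.5%, near the 13.9% of all genes). The list median was -0.00. Without NIL C 11 were higher and 11 lower, where 3052 and 3285 of 14207 genes were higher and lower. The lower count was smaller without SDDIR A, a fit that leaves 1 SDDIR library. In RISDD against SDD 13 were higher (40.6%, against 20.0% of all genes) and 7 lower (21.9%, near the 22.6% of all genes), with a median of 0.30. Parvb, which links integrins to actin, rose 27.8-fold in RISDD (adjusted p 3.84e-05) and 9.62-fold in SDDIR (adjusted p 0.00265). Cd151, the tetraspanin of laminin-binding integrins, rose 7.10-fold (adjusted p 2.85e-07) and 5.20-fold (adjusted p 1.56e-05) in the same comparisons. Paxillin (Pxn) rose 6.34-fold in RISDD against SDD (adjusted p 1.7e-06). In RISDD against SDDIR 4 were called, all higher (12.5%, against 4.64% of all genes, median 0.26). With limma that count was 0 without RISDD B or RISDD C (11 and 13 at an unadjusted p under 0.05). Over all genes those fits called 4.31% and 4.79%. The count was 1 without RISDD A, SDD B or SDD C, 2 without SDD A, and smaller than 4 without either SDDIR library. Without NIL C it was 17, where 29.4% of all genes were called. DESeq2 called 10, where it called 15.9% of all genes.

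Of 24 tested basement membrane and laminin partner genes, 15 were lower and 3 higher in SDDIR and 14 were lower and 4 higher in RISDD, each against SDD, with medians of -0.93 and -0.86 against 0.01 and 0.02 over all genes. The lower shares were 62.5% and 58.3%, against 13.9% and 22.6% of all genes. The higher shares were 12.5% and 16.7%, against 8.66% and 20.0%, so the higher count in RISDD was no more than the background. Col4a5, a chain of network collagen, fell 6.29-fold in SDDIR (adjusted p 1.24e-05) and 20.2-fold in RISDD (adjusted p 6.86e-08). Frem1 and Fras1, partners in the Fraser complex of skin basement membrane, fell 91.4-fold (adjusted p 1.21e-06) and 37.2-fold (adjusted p 2.11e-07) in RISDD. In SDD against NIL 9 were lower (37.5%, against 8.26% of all genes) and 1 higher (median -0.40), and Ntn4 and the Itga8 ligand Npnt fell by 2.69-fold (adjusted p 0.00559) and 2.94-fold (adjusted p 0.00754). The lower count was 4 without SDD B and 3 without SDD C, where 766 and 584 of 14207 genes were lower. In SDDIR against SDD the lower count was smaller without SDDIR A. Without SDDIR B limma called 12 there, all lower, and 3 higher genes had an unadjusted p under 0.05, while DESeq2 on all libraries called 3 higher. In RISDD against SDDIR 5 were lower (20.8%, against 5.05% of all genes) and 1 higher (4.17%, near the 4.64% of all genes), with a median of 0.05. The lower count was 3 without RISDD B, RISDD C or SDD C, and it was also smaller without either SDDIR library. The higher count was 2 without NIL A and 4 without NIL C, where 661 and 2116 of 14207 genes were higher. The 1 higher call was lost without SDDIR A or SDDIR B.

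Of 23 tested integrin ligand genes other than laminins, 15 were lower and 2 higher in SDDIR and 17 were lower and 5 higher in RISDD, each against SDD, with medians of -1.35 and -2.31. The lower shares were 65.2% and 73.9%, against 13.9% and 22.6% of all genes, and the higher shares of 8.70% and 21.7% were near the 8.66% and 20.0% of all genes. The higher count in SDDIR was 1 without SDD A, SDD C, either SDDIR library or any 1 RISDD library. This list holds fibroblast collagens that are also in the fibroblast marker list. Col1a1, an Itga2 and Itga11 ligand, fell 7.29-fold in SDDIR (adjusted p 0.00011) and 23.9-fold in RISDD (adjusted p 5.29e-07). Vcam1, the ligand of Itga4 pairs, fell 23.8-fold in RISDD (adjusted p 5.8e-06). Ccn1 and Ccn2, matrix proteins that bind Itgav pairs, fell 7.05-fold (adjusted p 1.34e-05) and 21.5-fold (adjusted p 1.4e-05) in SDDIR. Spp1 (osteopontin, an RGD ligand) fell 4.88-fold in SDD against NIL (adjusted p 0.000307) and was 4.25-fold higher in RISDD than in SDDIR (adjusted p 0.00123). In SDD against NIL 8 were lower (34.8%, against 8.26% of all genes) and 1, Ccn1, was higher (median -0.61). Without SDD C 5 were lower, where 584 of 14207 genes were lower. In RISDD against SDDIR 6 were lower (26.1%, against 5.05%) and 3 higher (13.0%, against 4.64%), with a median of -0.37. Fewer were lower without SDDIR A. Without NIL C 12 were lower and 5 higher, where 2066 and 2116 of 14207 genes were lower and higher.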

How the data were processed

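Libraries came from polyA RNA of the sorted cells with the NEBNext Ultra II Directional kit, per the labels' protocols. The submitters' processing notes name Trim Galore 0.6.10, Salmon 1.10.3 and GRCm39, and what summed and scaled the reads was not given in the sources used here. Signal values were deposited by the authors, which are gene counts over a constant for each library. In 100% of values (tolerance 0.001) they gave whole reads, so DESeq2 1.42.0 and edgeR 4.0.16 were run on recovered reads as alternatives. The heading SDDIR_B stood on 2 columns that were equal in all 23077 rows and was counted once, and the third SDDIR sample was not analysed here. Whether the library called SDDIR B is replicate B or C cannot be told from the table.

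One fit over the 4 groups was made with limma 3.58.1 (R 4.3.3) on log2(value + 1) with trend and robust moderation, over 14207 genes with at least 10 in at least 3 libraries. Fold changes are on that scale and understate changes of low genes. P-values were adjusted by Benjamini-Hochberg over all genes tested, with a threshold of 0.05. The method was tested on simulated data. All kept members are counted, and all but 1, which is not reported here, are named. Those called with an absolute log2 difference of at least 1 and at least 100 as the mean of either group are given in every library. From each partner list at most 3 called genes per comparison are named, by size, at that mean. Results were recomputed with pseudocounts of 0.5 and 10, without the filter or with a minimum of 50, upper-quartile or quantile scaling, no trend or robust moderation, array weights, only the 2 groups compared, a replicate block, both count models and each library left out. Paralogous reads were assigned by the authors' quantification. Members, lists and motifs were chosen with earlier results of these data known.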

Additional observations from a re-analysis of the deposited data

Results flagged for a closer look

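For 3 genes the log2 differences of SDDIR and RISDD, each against SDD, had opposite signs. In these genes the difference between the 2 HRAS groups passed the threshold itself (limma, adjusted p under 0.05). Itga8 differed by 0.09 in SDDIR and -1.91 in RISDD, and RISDD was lower than SDDIR by -1.99 (adjusted p 0.00786). Itgb2 differed by -1.53 and 0.61, and RISDD was higher than SDDIR by 2.14 (adjusted p 0.0396). Lama3 differed by -0.89 and 1.59, and RISDD was higher than SDDIR by 2.49 (adjusted p 0.00914). All values are log2 differences. Neither the SDDIR value of any of the 3 nor the RISDD value of Itgb2 was called on its own. None of the 3 therefore had called changes in opposite directions, and Itga8 hardly differed between SDDIR and SDD. All 3 calls between the HRAS groups were lost without SDDIR A or SDDIR B, and that of Itgb2 in 10 of 23 alternatives.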

How the results depend on the processing

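Of 59 calls of a member in a comparison, 36 held under every alternative run, and of 1351 alternative values of these calls 1231 stayed called, 120 lost the call and 0 reversed direction. Of the 73 pairs of a member and a comparison that were not called, 29 were called in at least 1 alternative. Calls in SDD against NIL went from 12 to 5 when only the 2 groups compared were fitted. Those in RISDD against SDDIR went from 12 to 21 with array weights, 22 with only the 2 groups compared and 19 with DESeq2. With 1 library left out the counts ran from 6 to 17 in SDD against NIL, 8 to 16 in SDDIR against SDD, 19 to 23 in RISDD against SDD and 5 to 19 in RISDD against SDDIR. Over all genes, RISDD against SDDIR called 1377 in all libraries, 308 without SDDIR A, 4182 without NIL C, 2258 with DESeq2, 4923 with only the 2 groups compared and 5346 with array weights. SDD against NIL called 2498, and 697 with only the 2 groups compared, 4128 without NIL C and 1231 without SDD C. SDDIR against SDD called 3199, and 6902 with array weights, 5361 with only the 2 groups compared and 1673 without SDDIR A. RISDD against SDD called 6046, and 9781 with array weights. The main fit shares 1 estimate of the spread of each gene among the 4 groups. A library outside a comparison therefore changes its SE but not its log2 difference. For Itga3 in RISDD against SDDIR the log2 difference was 2.27 with and without NIL C, and the SE was smaller without it (0.186). Whether a gene was called thus depends in part on the spread in groups not compared. Why the libraries differ in spread was not tested. Deviations of same-letter libraries correlated positively in 15 of 15 pairs (different letters: 6 of 30), and over 0.1 in 9 (0.000225 to 0.271). Deviations were taken from group means, so positive same-letter values push different-letter values down and the pairs are not independent. SDDIR B was counted there as letter B, although its letter cannot be told. The labels say nothing further of the letters, and the main fit did not pair the samples by them. An effect shared by a letter is therefore not modelled there. With a replicate block 14, 14, 24 and 14 members were called in the order above, against 12, 13, 22 and 12. Leaving out an SDDIR library leaves 1, which is assumed to vary like the other groups. Genes near 0, such as Lamb3 in NIL, are limited by depth.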
